A study of Mus musculus with 4 samples.

Results

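A set of 10 secreted or membrane-bound attractants was followed in single cells of MC38 tumours: the chemokine genes Cxcl1, Cxcl2, Cxcl5, Ccl2, Ccl7, Ccl20, Cxcl10, Cxcl16 and Cx3cl1, and the growth factor gene Csf1. The 10 genes were chosen by earlier measured values of these same libraries, so their levels and their differences between libraries are descriptions. Of these 10 genes, 8 were among the 26172 gene symbols listed for the libraries, and Cxcl5 and Ccl20 were not analysed here. MC38 is a mouse colon carcinoma cell line. The cells had been inoculated into FOXP3 humanized mice and into wild-type mice, all 10 weeks old and otherwise untreated, and tumours were taken on day 20. The FOXP3 gene encodes the lineage factor of regulatory T cells, and the labels do not say which part of the gene was humanized or how many animals gave a library. Each genotype had 1 cDNA library made from cells that a Percoll gradient had enriched for immune cells. With n = 1 per genotype no test was possible, and genotype cannot be told apart from library or mouse.

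Levels were summed over 2 classes of barcodes, a barcode being the tag of 1 captured cell. Deep barcodes had at least 5000 UMIs, the counts of unique transcript molecules, and no UMI of the T cell genes Cd3e, Cd3d and Cd3g or of the leukocyte gene Ptprc. T barcodes had under 5000 UMIs and at least 1 UMI of Cd3e, Cd3d or Cd3g. There were 9671 deep barcodes in the FOXP3 humanized library of 11087 barcodes and 6705 in the wild-type library of 7691, which was 87.2% of each library. T barcodes numbered 155 in the FOXP3 humanized library and 96 in the wild-type library. Median UMIs per deep barcode were 12522 in the FOXP3 humanized and 16866 in the wild-type library, and per T barcode 1587 and 1700.5 in the same order of libraries. The deep barcodes summed to 140575771 UMIs in the FOXP3 humanized and 129144384 UMIs in the wild-type library, and the T barcodes to 279949 and 185429 UMIs. The labels call the cells immune cells. In deep barcodes the macrophage and monocyte markers together reached 5.61 CPM (UMIs scaled to 1000000) in the FOXP3 humanized and 6.15 CPM in the wild-type library. Because the class rule leaves out barcodes with a Ptprc UMI, low leukocyte marker levels in deep barcodes cannot be set against the label. The neutrophil markers reached 0.903 and 0.565 CPM, and the epithelial markers 3.09 and 5.71 CPM. The fibroblast markers were higher, at 144 CPM in the FOXP3 humanized and 128 CPM in the wild-type library. Most of this was Col1a2 (81.9 and 67.8 CPM) and Dcn (31.9 and 36.5 CPM). Pdgfrb stood at 14.7 and 12.4 CPM, Col1a1 at 12.9 and 7.72 CPM and Pdgfra at 2.96 and 3.57 CPM, and Lum had 0 and 1 UMIs. At least 2 UMIs of these markers were present in 44.7% and 47.9% of deep barcodes. Whether such barcodes are fibroblasts was not tested. A total of 1551 barcode names occurred in both libraries; they are running names and not cell sequences. All intervals are 95% intervals of counting error only, Poisson for levels, Clopper-Pearson for shares and conditional for ratios.

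Chemokines are small secreted proteins that draw leukocytes along gradients through G protein-coupled receptors. In mouse tumours, CXCL1, CXCL2 and CXCL5 bind CXCR2 on neutrophils, CCL2 and CCL7 bind CCR2 on inflammatory monocytes, CCL20 binds CCR6, and CXCL10 binds CXCR3 on activated T cells. CXCL16 and CX3CL1 are made as membrane-anchored proteins that ADAM10 and ADAM17 can shed, and they bind CXCR6 and CX3CR1. CSF1 binds CSF1R and sustains monocytes and macrophages. Transcription of Cxcl1, Cxcl2 and Ccl2 is a classical output of NF-kappaB, and that of Cxcl10 of interferon signalling.

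Promoter windows from RefSeq (build GRCm38.p6) were matched by symbol for 6 of the 10 genes. The 250 bases before the start are printed for Cxcl1, Cxcl2 and Cxcl10, because these genes separated most clearly in what they were detected with. They lie at chr5:90890995-90891244 on the plus strand for Cxcl1, at chr5:90903649-90903898 on the plus strand for Cxcl2 and at chr5:92348890-92349139 on the minus strand for Cxcl10. Capitals mark matches on either strand to a kappaB-like motif (GGG, any 3 bases, TTCC) or to an interferon response element-like motif (GAAA, any 2 bases, GAAA).
Cxcl1: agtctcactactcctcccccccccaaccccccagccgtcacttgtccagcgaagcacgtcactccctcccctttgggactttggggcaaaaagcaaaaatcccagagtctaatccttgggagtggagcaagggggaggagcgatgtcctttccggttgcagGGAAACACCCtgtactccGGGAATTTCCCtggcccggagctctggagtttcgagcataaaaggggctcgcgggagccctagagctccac
Cxcl2: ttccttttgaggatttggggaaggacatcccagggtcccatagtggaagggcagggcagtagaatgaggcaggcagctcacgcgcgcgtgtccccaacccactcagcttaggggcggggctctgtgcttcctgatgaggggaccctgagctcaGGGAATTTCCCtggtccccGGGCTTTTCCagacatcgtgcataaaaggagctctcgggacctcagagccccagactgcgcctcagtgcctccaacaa
Cxcl10: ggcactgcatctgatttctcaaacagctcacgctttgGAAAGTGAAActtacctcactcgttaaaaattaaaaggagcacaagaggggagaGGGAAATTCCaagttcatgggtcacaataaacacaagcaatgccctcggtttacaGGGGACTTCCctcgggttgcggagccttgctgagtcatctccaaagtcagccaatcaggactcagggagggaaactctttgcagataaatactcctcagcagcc
The Cxcl1 window held 3 matches to the kappaB-like motif, of which those at -71 to -62 and -70 to -61 overlap on opposite strands, and the third lies at -89 to -80. The Cxcl2 window likewise held 3, an overlapping pair at -97 to -88 and -96 to -87 and a match at -78 to -69. The Cxcl10 window held 2, at -159 to -150 and -104 to -95, and 1 match to the interferon response element-like motif at -213 to -204. The Csf1 and Ccl20 windows held 1 match each to the kappaB-like motif. The Cx3cl1 window held neither motif but 1 TATAAA. Among 32851 RefSeq windows that run from 250 bases before to 50 after the start, 5.56% held the kappaB-like motif, 3.44% held the interferon response element-like motif and 13.6% held TATAAA. A match is a match of letters and not a measured binding site. Ccl2, Ccl7, Cxcl5 and Cxcl16 had no window.

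In deep barcodes, 4 of the 8 measured genes were at least 1.5-fold higher in the FOXP3 humanized than in the wild-type library with an interval that excluded no difference. These were Cxcl1, Cxcl2, Ccl2 and Ccl7, the attractants of neutrophils and monocytes. By the same rule 0.634% of 13728 genes with at least 100 UMIs were higher. Cxcl10 was the 1 gene of the 8 that was at least 1.5-fold lower, against 12.9% of all genes. Cxcl16, Cx3cl1 and Csf1 were called in neither direction. The median log2 ratio was 0.43 over the 8 genes and -0.21 over all 13728 genes, whose middle 95% ran from -1.04 to 0.29. Scaling to that median would add 0.21 to every log2 ratio given here. Among the 8 measured genes it left the same ones called. The calls of other genes and lists given below were made without it, and those near the limit would change. The median depended on level: it was -0.14 over genes at 10 CPM or more and -0.05 over genes at 100 CPM or more.

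**Figure D1:**
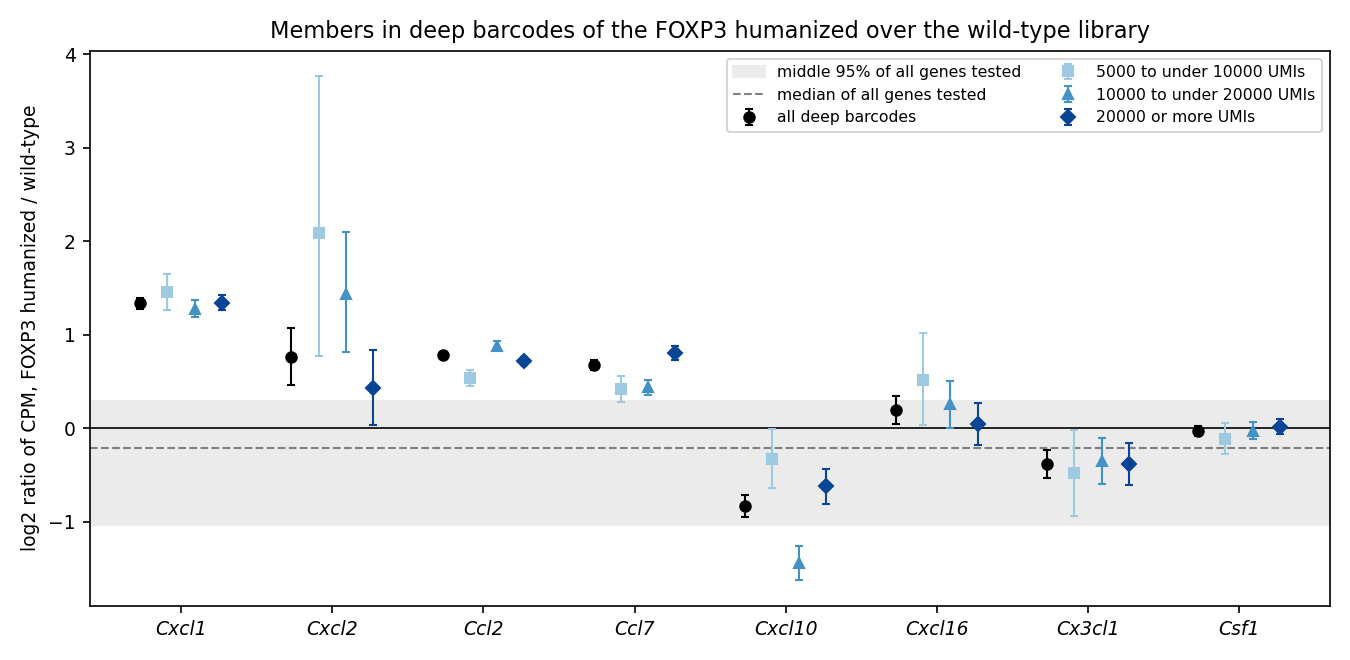
Log2 ratio of summed CPM in deep barcodes, FOXP3 humanized over wild-type, for each of the 8 measured genes, over all deep barcodes and within 3 ranges of UMIs per barcode; bars are 95% intervals of counting error with 1 library per genotype. Cxcl1 lay between 1.28 and 1.46 in the 3 ranges, whereas Csf1 lay between -0.11 and 0.01. The grey band is the middle 95% of all genes over all deep barcodes. Cxcl1 lay above it, but no band was computed within a range.

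Cxcl1, which encodes a ligand of CXCR2, had the highest ratio of the 8 over all deep barcodes. It had 9880 UMIs in FOXP3 humanized deep barcodes, or 70.3 CPM (68.9 to 71.7), and 3600 UMIs in wild-type deep barcodes, or 27.9 CPM (27.0 to 28.8). The log2 ratio was 1.33 (1.28 to 1.39), a 2.52-fold higher level. A UMI of Cxcl1 was present in 25.0% of FOXP3 humanized and 18.6% of wild-type deep barcodes. After thinning every deep barcode to 5000 UMIs, to set both libraries at 1 depth, the shares were 14.1% and 7.99%. The gene was unevenly spread: the 1% of barcodes with the most Cxcl1 held 36.4% of its UMIs in the FOXP3 humanized and 33.2% in the wild-type library, with up to 134 and 49 UMIs in 1 barcode. Without those barcodes the log2 ratio was 1.26. Within barcodes of 5000 to 10000, 10000 to 20000 and at least 20000 UMIs it was 1.46, 1.28 and 1.34.

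Cxcl2, the second CXCR2 ligand, was rare. It had 262 UMIs, 1.86 CPM (1.64 to 2.10), in FOXP3 humanized deep barcodes and 142 UMIs, 1.10 CPM (0.926 to 1.30), in wild-type deep barcodes, with a log2 ratio of 0.76 (0.46 to 1.07). Only 1.65% and 1.06% of deep barcodes had a UMI. The ratio changed with depth, from 2.09 (0.77 to 3.77) in barcodes of 5000 to 10000 UMIs through 1.43 to 0.43 (0.03 to 0.84) in those of at least 20000 UMIs, where it was under 1.5-fold. In the shallowest range the wild-type count was 5 UMIs. In the ranges under 20000 UMIs the ratio of Cxcl2 was above that of Cxcl1, but its intervals enclosed those of Cxcl1. They were 0.77 to 3.77 around 1.27 to 1.65 in the shallowest range and 0.81 to 2.10 around 1.19 to 1.37 in the next. These ranges therefore do not rank the 2 genes. The ratio of Cxcl2 was also the higher without barcodes with at least 2 fibroblast marker UMIs (1.95 against 1.69). Without the top 1% of barcodes of each gene the ratios were 4.27 and 1.26, but this setting cannot rank the 2 genes either. For Cxcl2 it removed 68 wild-type barcodes, where only 71 had a UMI, and with them 97.9% of the wild-type UMIs. In the FOXP3 humanized library it removed 97 barcodes with 76.0% of the UMIs.

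Ccl2, which recruits CCR2-positive monocytes, was detected in the largest share of FOXP3 humanized deep barcodes of the 8 genes. In the wild-type library Csf1 came before it over all UMIs (43.2% against 39.6%), but Ccl2 led there too once barcodes were thinned to 5000 UMIs (20.8% against 16.9%). Ccl2 had 27291 UMIs in FOXP3 humanized deep barcodes, 194 CPM (191.8 to 196), and 14604 UMIs in wild-type ones, 113 CPM (111 to 115). The log2 ratio was 0.78 (0.75 to 0.81). A UMI was found in 48.6% of FOXP3 humanized and 39.6% of wild-type deep barcodes, and after thinning in 30.2% and 20.8%. Single barcodes held up to 477 UMIs in the FOXP3 humanized and 354 UMIs in the wild-type library. The ratio was 0.54, 0.88 and 0.72 in the 3 depth ranges, and the first of these fell short of 1.5-fold.

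Ccl7, a neighbour of Ccl2 in the chemokine family that also binds CCR2, had 9103 UMIs in FOXP3 humanized deep barcodes, 64.8 CPM (63.4 to 66.1), and 5238 UMIs in wild-type ones, 40.6 CPM (39.5 to 41.7). Its log2 ratio was 0.67 (0.63 to 0.72). It was detected in 30.7% of FOXP3 humanized and 26.6% of wild-type deep barcodes, and in 17.4% and 12.6% after thinning. The ratio passed 1.5-fold only in barcodes of at least 20000 UMIs, at 0.80, against 0.42 and 0.44 in the shallower ranges. With each barcode weighted equally it was 0.58, just short of 1.5-fold.

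Cxcl10, the interferon-induced ligand of CXCR3, was lower in the FOXP3 humanized library. It had 978 UMIs in FOXP3 humanized deep barcodes, 6.96 CPM (6.53 to 7.41), and 1604 UMIs in wild-type ones, 12.4 CPM (11.8 to 13.0). The log2 ratio was -0.84 (-0.95 to -0.72). This value lay inside the middle range of all genes given above, -1.04 to 0.29, so it was not set apart from their spread. A UMI was present in 3.70% of FOXP3 humanized and 5.53% of wild-type deep barcodes, and in 1.82% and 2.21% after thinning. Few barcodes carried most of the transcript: the top 1% held 73.3% of its UMIs in the FOXP3 humanized and 77.4% in the wild-type library, and 18 and 35 barcodes had at least 10 UMIs. Without that top 1% the log2 ratio was -0.60. In the depth ranges it was -0.33, -1.45 and -0.62, and the first was under 1.5-fold. Before median scaling, 9 of the 20 interferon list genes were at least 1.5-fold lower in the FOXP3 humanized library and 0 were higher. The shares of all genes were 12.9% and 0.634%. The list's median log2 ratio was -0.52 against -0.21 over all genes.

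The membrane-anchored ligands were sparse. Cxcl16 had 809 UMIs, 5.75 CPM (5.37 to 6.17), in FOXP3 humanized deep barcodes and 650 UMIs, 5.03 CPM (4.65 to 5.44), in wild-type ones, a log2 ratio of 0.19 (0.04 to 0.34). Cx3cl1 had 659 UMIs, 4.69 CPM (4.34 to 5.06), in FOXP3 humanized deep barcodes and 792 UMIs, 6.13 CPM (5.71 to 6.58), in wild-type ones, a log2 ratio of -0.39 (-0.54 to -0.24). No deep barcode had more than 6 and 7 UMIs of Cxcl16 or more than 6 and 4 UMIs of Cx3cl1 in the FOXP3 humanized and wild-type libraries. The transcripts of both sheddases were present, Adam10 at 16.7 CPM in FOXP3 humanized and 19.4 CPM in wild-type deep barcodes and Adam17 at 13.8 and 16.0 CPM, each with a log2 ratio of -0.21, at the median of all genes.

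Csf1, the growth factor of monocytes and macrophages, was nearly level between the libraries. It had 5561 UMIs in FOXP3 humanized deep barcodes, 39.6 CPM (38.5 to 40.6), and 5226 UMIs in wild-type ones, 40.5 CPM (39.4 to 41.6). The log2 ratio was -0.03, with an interval from -0.09 to 0.02, and 0.18 relative to the median of all genes. After thinning, 16.6% and 16.9% of barcodes had a UMI. Csf1 was also the least concentrated of the 8 genes, with 11.7% of UMIs in the top 1% of FOXP3 humanized and 9.95% in the top 1% of wild-type barcodes. Il34, which encodes the other ligand of CSF1R, had 23472 UMIs in FOXP3 humanized deep barcodes (167 CPM) and 22344 UMIs in wild-type ones (173 CPM), with a log2 ratio of -0.05.

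T barcodes gave a second cell type in the same libraries, though T cells are not known to lack every one of these transcripts, and the share of a T barcode count that was free RNA was not tested. In T barcodes Ccl2 had 9 UMIs in the FOXP3 humanized library, 32.1 CPM (14.7 to 61.0), and 2 UMIs in the wild-type library, 10.8 CPM (1.31 to 39.0). Ccl2 was therefore 6.04-fold higher in deep than in T barcodes of the FOXP3 humanized library and 10.5-fold higher in the wild-type library, with log2 intervals of 1.67 to 3.72 and 1.54 to 6.44. It was the 1 gene of the 8 at least 4-fold higher in both, and 1.52% of all genes passed that rule. Cxcl1 lay just outside it, 3.94-fold higher in the FOXP3 humanized library (5 T barcode UMIs) and 5.17-fold higher in the wild-type library (1 T barcode UMI, log2 interval -0.11 to 7.67). Ccl7 had 0 UMIs in T barcodes of both libraries. With a floor of 3 counts over all T barcodes of a library, it was at least 6.04-fold higher in deep barcodes of the FOXP3 humanized and at least 2.51-fold higher in those of the wild-type library. With all barcodes thinned to 1000 UMIs, Ccl2 was found in 11.2% of deep and 3.23% of T barcodes of the FOXP3 humanized library and in 7.25% and 1.04% in the wild-type library. For Cxcl1 the thinned shares were 4.81% and 2.58% in the FOXP3 humanized and 2.27% and 1.04% in the wild-type library.

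**Figure D2:**
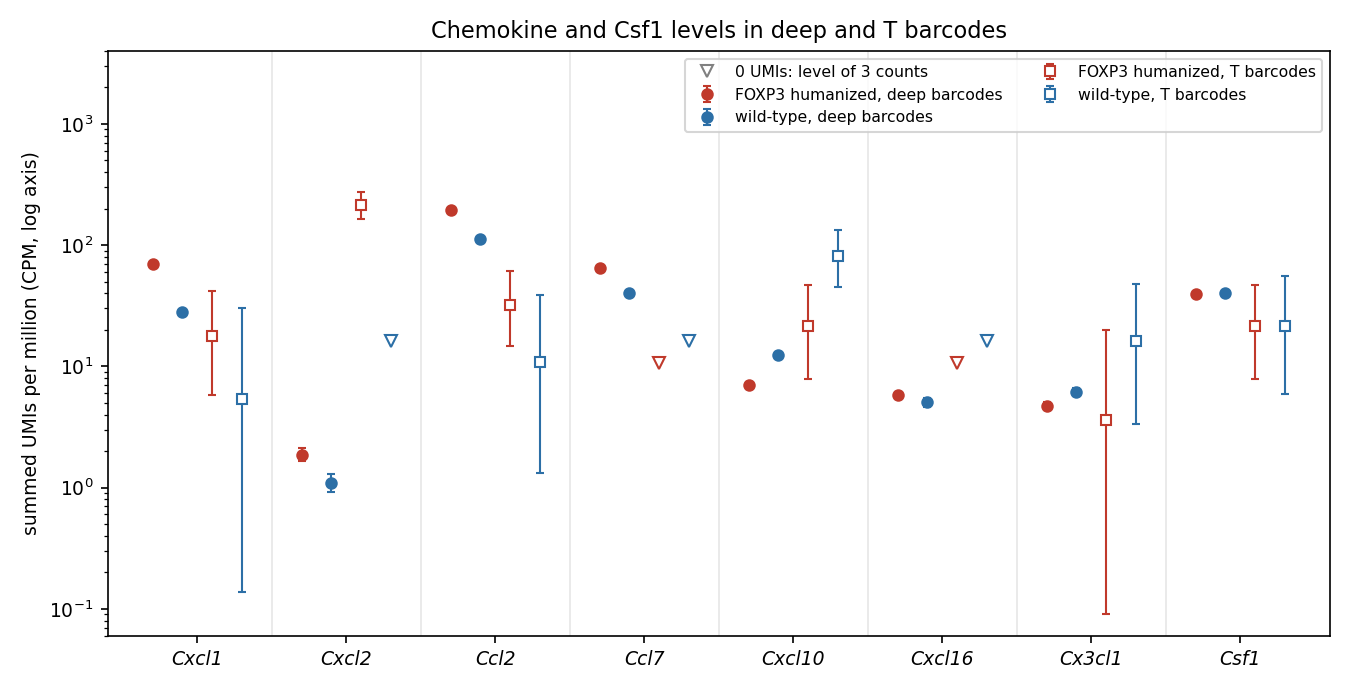
Summed UMIs as CPM (log axis) of the 8 measured genes in deep barcodes (filled circles) and T barcodes (open squares) of the FOXP3 humanized and wild-type libraries, with 95% Poisson intervals; triangles give the level of 3 counts where there were 0 UMIs. Ccl2 stood at 194 and 113 CPM in deep barcodes and at 32.1 and 10.8 CPM in T barcodes, whereas Cxcl2 reached 214 CPM in FOXP3 humanized T barcodes against 1.86 CPM in deep barcodes of the same library.

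For the other genes the classes were closer or in the reverse order. Csf1 was 1.85-fold higher in deep than in T barcodes of the FOXP3 humanized library (6 T barcode UMIs) and 1.88-fold higher in the wild-type library (4 T barcode UMIs), and both intervals included no difference. Thinned in this way, Csf1 was found in 3.86% of deep and 3.23% of T barcodes of the FOXP3 humanized library, and in 4.00% and 3.13% in the wild-type library, so the shares were not separable at this depth. Cx3cl1 was found in 0.362% of thinned deep and 0.645% of T barcodes of the FOXP3 humanized library, and in 0.597% and 3.13% in the wild-type library. The T barcode shares of Cx3cl1 rested on 1 UMI in the FOXP3 humanized and 3 UMIs in the wild-type library. The log2 intervals of deep over T barcodes were -2.09 to 5.70 and -2.95 to 0.88, so the order of the classes was not determined. Cxcl16 had 0 UMIs in T barcodes, which allowed a level of up to 13.2 CPM in the FOXP3 humanized and 19.9 CPM in the wild-type library, above the deep levels.

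Cxcl2 in T barcodes came from few cells of 1 library. FOXP3 humanized T barcodes held 60 UMIs, 214 CPM (164 to 276), in 7 of 155 barcodes, and wild-type T barcodes held 0 UMIs, which allowed up to 19.9 CPM. One barcode with 1814 UMIs in all held 42 of the 60, beside 145 UMIs of the gamma-delta T17 markers Trdc, Il17a, Scart1, Trgc1 and Il23r, of which 141 were Il17a. Of the 7 barcodes, 6 carried UMIs of those markers, and none carried a UMI of the macrophage or neutrophil markers. At least 2 such marker UMIs were present in 38 of the 155 FOXP3 humanized T barcodes, and Cxcl2 was found in 15.8% of the 38 (6.02 to 31.3%) and in 0.855% of the other 117 (0.02 to 4.67%). In the wild-type library, 21 of 96 T barcodes had at least 2 marker UMIs, and 0 of 21 allows a share of up to 16.1%.

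The summed level of Cxcl10 was also higher in T than in deep barcodes, but it came from few T barcodes. It had 6 UMIs in 4 FOXP3 humanized T barcodes, 21.4 CPM (7.87 to 46.6), and 15 UMIs in 3 wild-type T barcodes, 80.9 CPM (45.3 to 133). The 3 wild-type barcodes held 7, 5 and 3 UMIs. The log2 ratio of deep over T barcodes was -1.62 (-2.75 to -0.17) in the FOXP3 humanized and -2.70 (-3.43 to -1.86) in the wild-type library. These intervals count UMIs and leave out that several came from the same barcode. Thinned to 1000 UMIs, Cxcl10 was found in 0.496% of deep and 1.94% of T barcodes of the FOXP3 humanized library. In the wild-type library the shares were 0.716% and 3.13%. So few T barcodes do not settle the order of the classes by share.

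The genes were next compared within single deep barcodes. Because barcodes with more UMIs detect more of any gene, the odds ratio of finding both genes was taken over 10 strata of UMI total. Of 28 pairs, 5 had an odds ratio of at least 2 in both libraries, and 0 pairs were under 1 in both. The highest was the pair of CXCR2 ligands, Cxcl1 and Cxcl2, at 6.16 in the FOXP3 humanized and 5.40 in the wild-type library. Of barcodes with a Cxcl2 UMI, 68.1% had one of Cxcl1 in the FOXP3 humanized library, against 24.3% of the others, and 62.0% against 18.1% in the wild-type library. The pair of CCR2 ligands, Ccl2 and Ccl7, stood at 4.03 and 4.51, which was next in the wild-type library but lay below Cxcl2 with Ccl7 in the FOXP3 humanized library. Ccl7 was found in 46.2% of Ccl2-positive and 16.0% of Ccl2-negative barcodes of the FOXP3 humanized library, and in 45.1% and 14.5% in the wild-type library. The other 3 pairs held Cxcl2, with Ccl7 (4.23 and 2.86), with Ccl2 (3.21 and 3.43) and with Cxcl16 (2.06 and 2.18). Cxcl1 with Ccl2 (2.16 and 1.88) and Cxcl1 with Ccl7 (2.13 and 1.93) lay just below the limit in the wild-type library.

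**Figure D3:**
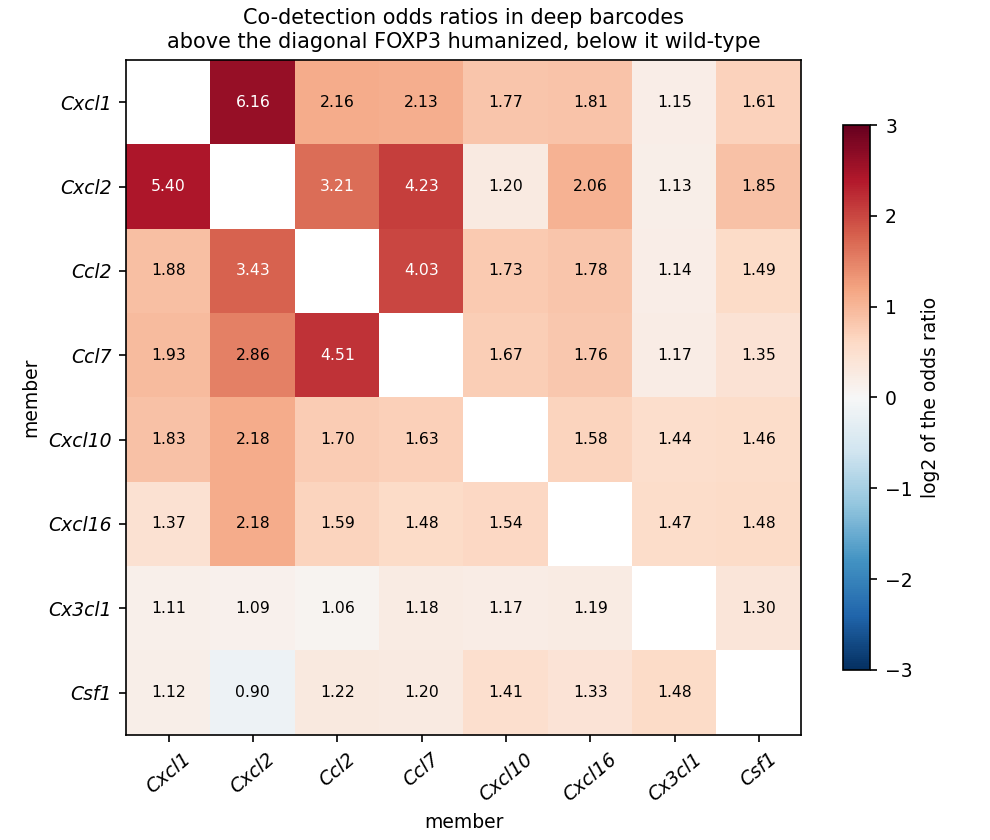
Odds ratios of co-detection of each pair of the 8 measured genes over deep barcodes, stratified by UMI total, with the FOXP3 humanized library above the diagonal and the wild-type library below it; colour is the log2 of the odds ratio. The highest pair in both libraries was Cxcl1 with Cxcl2 (6.16 and 5.40), and the next were Cxcl2 with Ccl7 (4.23) in the FOXP3 humanized and Ccl2 with Ccl7 (4.51) in the wild-type library.

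Barcodes with a UMI of each of Cxcl1, Ccl2 and Ccl7 made up 9.83% (9.25 to 10.4%) of FOXP3 humanized and 5.82% (5.27 to 6.40%) of wild-type deep barcodes, and after thinning 3.44% and 1.39%. None of the 3 was seen in 36.3% and 45.0% of barcodes, and after thinning in 56.8% and 69.1%. At least 10 UMIs of Cxcl1 were present in 208 FOXP3 humanized and 75 wild-type deep barcodes. In these, Ccl2 reached 1584 CPM in the FOXP3 humanized library against 151 CPM elsewhere, and 947 against 100.1 CPM in the wild-type library. Cxcl2 reached 25.0 CPM in those barcodes against 1.15 CPM elsewhere in the FOXP3 humanized library, and 32.9 against 0.605 CPM in the wild-type library. Csf1 reached 126 CPM against 36.9 CPM elsewhere in the FOXP3 humanized library, but 43.6 against 40.4 CPM in the wild-type library. The macrophage and monocyte markers stood at 3.81 CPM in the 208 barcodes and 5.66 CPM elsewhere, and at 6.58 CPM in the 75 barcodes and 6.14 CPM elsewhere. The neutrophil markers had 2 UMIs in the 208 barcodes and 0 in the 75. Deep barcodes with a Ptprc UMI had been left out by the class rule, which limits what these leukocyte markers can show.

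Barcodes with at least 10 UMIs of Ccl2 carried more of the fibroblast markers, 197 against 140 CPM elsewhere in the FOXP3 humanized library (613 barcodes) and 203 against 123 CPM in the wild-type library (331 barcodes). The same held for barcodes with at least 10 UMIs of Ccl7, at 226 against 143 CPM elsewhere in the FOXP3 humanized library and 202 against 127 CPM in the wild-type library, and with smaller gaps for those with at least 10 UMIs of Cxcl1, at 159 against 144 CPM and 159 against 127 CPM. At least 2 fibroblast marker UMIs were present in 59.1% of the Cxcl1 barcodes and 44.4% of the others in the FOXP3 humanized library, and in 70.7% and 47.6% in the wild-type library. These shares were not set at 1 depth. The Cxcl1 barcodes were deeper, with a median of 17659.5 against 12436 UMIs in the FOXP3 humanized and 23539 against 16785.5 UMIs in the wild-type library. Col1a1, a fibrillar collagen gene, had an odds ratio with Ccl2 of 2.08 in the FOXP3 humanized and 2.09 in the wild-type library, and was the 1 fibroblast marker of the 5 tested that passed 2 in both. The markers did not move together. Col1a2 stood at 1.84 and 2.40 and Pdgfrb at 1.35 and 1.73, but Dcn at 1.24 and 1.05 and Pdgfra at 1.06 and 1.08. The part of fibroblast-marked barcodes in these levels was not tested. Without barcodes with at least 2 fibroblast marker UMIs, the log2 ratio of Ccl2 between the libraries was 1.16 and that of Cxcl1 was 1.69, both larger than over all deep barcodes.

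Genes outside the 8 were compared in the same way. Cxcl1 had an odds ratio of at least 2 in both libraries with 12 of 11906 genes (0.101%), and 1 of the 7 other measured members was among them. Of the NF-kappaB list, 4 of 17 tested genes passed with Cxcl1: Tnfaip3, which encodes the inhibitor A20, at 3.25 in the FOXP3 humanized and 2.77 in the wild-type library, Ier3 (2.81 and 2.66), the mRNA decay factor gene Zfp36 (2.82 and 2.56), and Nfkbia, which encodes the inhibitor IkappaB-alpha (2.49 and 2.92). The list's median was 1.59 in the FOXP3 humanized and 1.23 in the wild-type library, beside 1.06 and 1.05 over all genes. The immediate-early genes Junb, Egr1, Ier5 and Btg2 were also among the 12, and are named after their values were seen. Cxcl2 passed with 0.253% of genes, which included 4 of the other members and 2 of 16 NF-kappaB list genes, Ier3 and Zfp36. Nfkbia is not among the 16, because its odds ratio with Cxcl2 was undefined. In at least 1 library every barcode with a Cxcl2 UMI also had one of Nfkbia, so its absence is not a failure to pass.

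Ccl2 passed with 0.109% of genes and Ccl7 with 0.0924%, each with 2 of the other members. Neither passed with a gene of the NF-kappaB list, whose median was 1.34 in the FOXP3 humanized and 1.27 in the wild-type library for Ccl2 and 1.27 and 1.29 for Ccl7. Each passed with 1 of 19 interferon list genes, Iigp1, an immunity-related GTPase, at 2.17 and 2.37 with Ccl2 and at 2.71 and 2.33 with Ccl7. Both also passed with Ccl8, a related monocyte chemokine, at 2.42 and 2.60 with Ccl2 and at 2.27 and 2.02 with Ccl7, but Ccl8 also passed with Cxcl10, at 2.57 and 2.62. Ccl8 itself had 435 UMIs in FOXP3 humanized and 244 UMIs in wild-type deep barcodes, a log2 ratio of 0.71 (0.48 to 0.94).

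Cxcl10 passed with 0.554% of genes, none of them another member. Of the interferon list 17 of 19 tested genes passed, with a median of 4.13 in the FOXP3 humanized and 3.89 in the wild-type library, beside 1.06 and 1.06 over all genes. The highest were Ifit1 at 13.5 and 11.8 and Rsad2, which encodes viperin, at 12.9 and 11.9, and the exceptions were Ifit2 (1.59 and 2.49) and Psmb8 (1.66 and 1.94). No gene of the NF-kappaB list passed with Cxcl10. Cxcl16 passed with 0.0336% of genes, Cxcl2 among them, and Cx3cl1 and Csf1 with 0%, and none of these 3 passed with a gene of either list. No gene of the cell cycle or hypoxia lists passed with any of the 8.

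**Figure D4:**
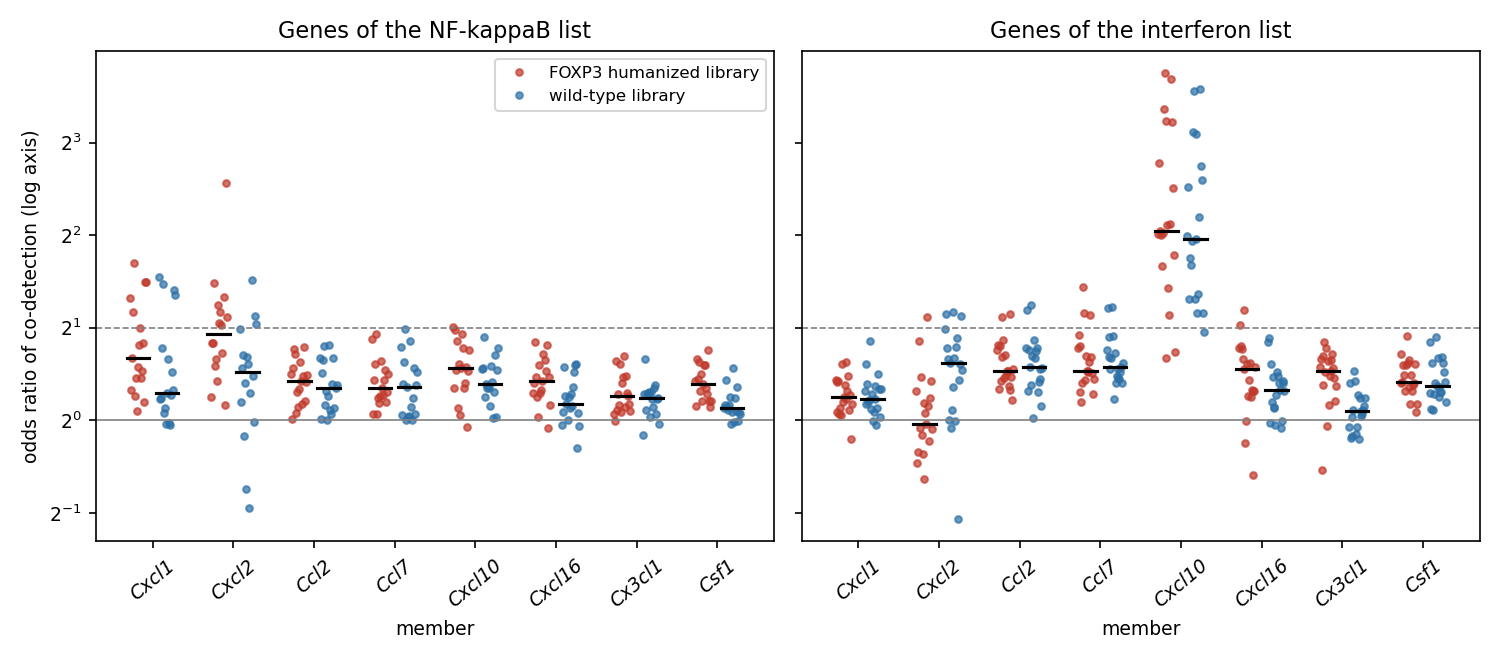
Odds ratios of co-detection (log axis) of each of the 8 measured genes with the genes of the NF-kappaB list and of the interferon list, 1 point per gene, FOXP3 humanized left and wild-type right; black bars are medians and the dashed line is 2. With Cxcl10 the interferon medians were 4.13 and 3.89, and with Cxcl1 the NF-kappaB medians were 1.59 and 1.23.

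The genes most like each member were ranked by the lower of the 2 libraries' Pearson correlations of log(1 + UMIs) over deep barcodes thinned to 5000 UMIs. These barcodes share a library, and the values describe it. For Cxcl1 they were Nfkbia (0.43 in the FOXP3 humanized and 0.29 in the wild-type library), Ccl2 (0.36 and 0.21) and Ier3 (0.34 and 0.21). For Cxcl2 the 1 gene that reached 0.1 was Cxcl1 (0.17 and 0.14). For Ccl2 they were Ccl7 (0.48 and 0.47), Nfkbia (0.27 and 0.23) and the surface antigen gene Ly6a (0.22 and 0.24), and for Ccl7 they were Ccl2, Ly6c1 (0.18 and 0.22) and Ly6a (0.19 and 0.18). For Cxcl10 they were the interferon-induced genes Ifit3 (0.41 and 0.43), Isg15 (0.39 and 0.40) and Parp14 (0.26 and 0.27). No gene reached 0.1 in both libraries with Cxcl16, Cx3cl1 or Csf1. Ier3 was itself at least 1.5-fold higher in the FOXP3 humanized library (log2 ratio 0.86) and was the 1 gene of 18 tested in the NF-kappaB list that was, while 0 were lower. Nfkbia stood at 0.55 and the list's median at 0.09. The calls in this list were made before median scaling.

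Of 15 receptor genes listed, 13 were among the gene symbols of the libraries and the other 2 were not analysed here. Ackr3, an atypical receptor of CXCL11 and CXCL12 and of none of the 10 ligands, had 12801 UMIs in FOXP3 humanized deep barcodes (91.1 CPM) and 10593 UMIs in wild-type ones (82.0 CPM). The other 12 had at most 65 UMIs each in the deep barcodes of a library. Cxcr2 had 46 UMIs in FOXP3 humanized and 64 UMIs in wild-type deep barcodes and 0 in T barcodes of both. Cx3cr1 had 18 and 65 UMIs in deep barcodes, a log2 ratio of -1.97 (-2.82 to -1.20), and 0 and 1 in T barcodes. Csf1r had 3 and 9 UMIs in deep barcodes and 0 in T barcodes of both libraries. For these 3 receptors the few T barcode UMIs do not show which class had the higher level. Cxcr6, Cxcr3 and Ccr2 had more UMIs in the T barcodes than in all deep barcodes of each library. Cxcr6, the receptor of CXCL16, had 117 UMIs in FOXP3 humanized T barcodes (418 CPM) and 74 UMIs in wild-type ones (399 CPM), against 23 and 9 UMIs in all deep barcodes. It was found in 37.4% of FOXP3 humanized and 37.5% of wild-type T barcodes. Cxcr6 was most frequent in T barcodes with at least 2 gamma-delta T17 marker UMIs, at 71.1% (54.1 to 84.6%) against 26.5% (18.8 to 35.5%) of the others in the FOXP3 humanized library. In the wild-type library the shares were 66.7% (43.0 to 85.4%) and 29.3% (19.4 to 41.0%), so that the intervals were apart in both libraries, at median depths of 1553 and 1610 UMIs in the FOXP3 humanized and 1505 and 1793 UMIs in the wild-type library.

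**Figure D5:**
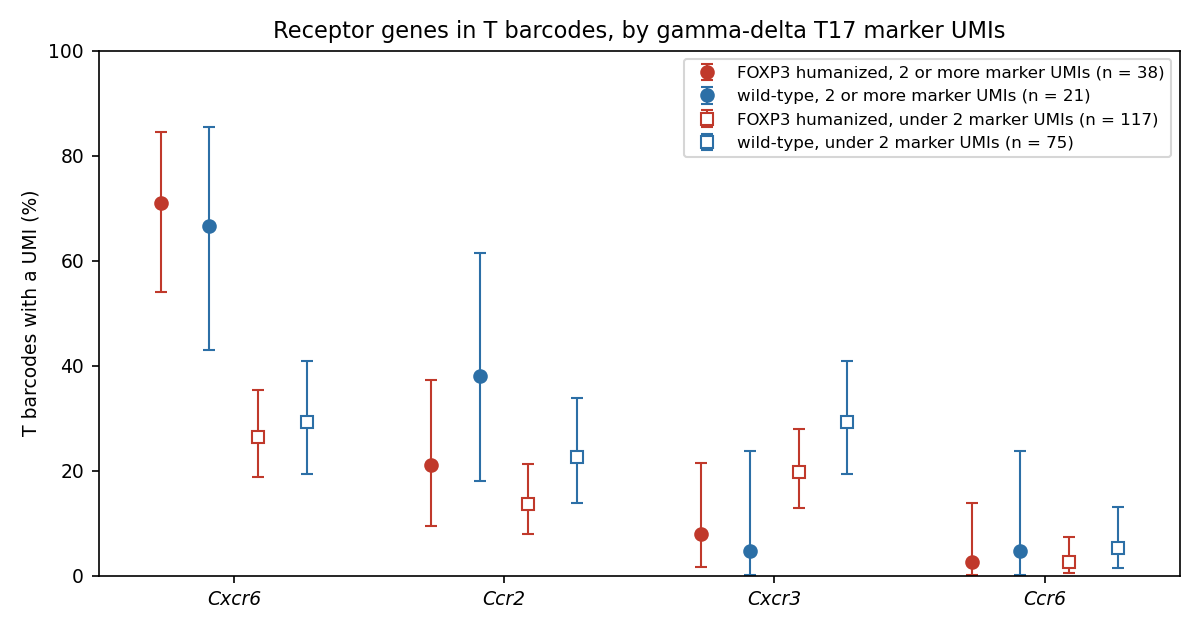
Share of T barcodes with a UMI of Cxcr6, Ccr2, Cxcr3 and Ccr6, for barcodes with at least 2 and with under 2 UMIs of the gamma-delta T17 markers in the FOXP3 humanized and wild-type libraries, with 95% Clopper-Pearson intervals. Cxcr6 was found in 71.1% and 66.7% of the marked barcodes and in 26.5% and 29.3% of the others.

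Cxcr3, the receptor of CXCL10, had 37 UMIs in FOXP3 humanized and 31 UMIs in wild-type T barcodes, and was found in 16.8% and 24.0% of them. In marked barcodes its share was 7.89% against 19.7% of the others in the FOXP3 humanized library and 4.76% against 29.3% in the wild-type library, with overlapping intervals. Ccr2, the receptor of CCL2 and CCL7, had 34 and 35 UMIs, in 15.5% of FOXP3 humanized and 26.0% of wild-type T barcodes. Ccr6, the receptor of CCL20, had 5 and 9 UMIs.

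Among other chemokine genes, Ccl27a and Ccl25 had the most UMIs in deep barcodes. Ccl27a had 4935 UMIs in FOXP3 humanized and 6428 UMIs in wild-type ones, and Ccl25 had 2135 and 2507. Of 7 such genes with at least 100 UMIs, Ccl4 and Ccl8 were at least 1.5-fold higher in the FOXP3 humanized library, and Cxcl9, Cxcl17 and Ccl5 were lower, beside 0.634% and 12.9% of all genes. Ccl4 had 70 UMIs in FOXP3 humanized and 41 UMIs in wild-type deep barcodes, but 530 UMIs in 8 FOXP3 humanized T barcodes (1893 CPM) and 20 UMIs in 1 wild-type T barcode (108 CPM). Cxcl9, an interferon-induced CXCR3 ligand like Cxcl10, had 52 and 101 UMIs, a log2 ratio of -1.08. Ccl5 had 379 and 722 UMIs in deep barcodes, a log2 ratio of -1.05, and 289 and 139 UMIs in T barcodes. Of 9 other cytokine and growth factor genes tested, Csf2, the myeloid growth factor gene, was higher, with 135 UMIs in FOXP3 humanized and 42 UMIs in wild-type deep barcodes (log2 ratio 1.56, 1.05 to 2.10). Kitl was lower before median scaling, with 451 and 664 UMIs (log2 ratio -0.68).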

How the data were processed

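Cells were encapsulated with MGI's DNBelab C system, per the labels. Values are UMI counts, not normalized, from matrices that PISA 1.0 wrote, per the file headers. GRCm39 is the build in the submitters' processing notes. Neither aligner nor annotation is named, and the cell calling is not given in the sources used here. The oligo libraries were not used here. No barcode was removed beyond the class rules, and no doublet caller was run.

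UMIs were summed per class and library and scaled to all UMIs of that sum (CPM). Log2 ratios put the FOXP3 humanized over the wild-type library. A gene was called at 1.5-fold with an interval that excluded no difference. Ratios over all genes used those with at least 100 UMIs, and odds ratios those detected in 1% to 95% of deep barcodes of each library. With Cxcl2, 11862 genes had a defined odds ratio in both libraries and the rest were left out. Odds ratios were Mantel-Haenszel estimates over 10 strata of UMI total. The rules were tested on simulated data. The members, lists and tests were chosen with earlier results of these data known. Named by rule were all members, the 3 genes most like each (correlation of at least 0.1), and genes of the ligand, receptor and sheddase lists with at least 20 UMIs in a class, of which those bearing on the members are given. Python 3.11.15, NumPy 2.4.6, SciPy 1.17.1 and pandas 2.3.3 were used. Depth gives the precision: 3 counts equal 0.0213 CPM in FOXP3 humanized and 0.0232 CPM in wild-type deep barcodes, but 10.7 and 16.2 CPM in T barcodes. Alternatives are given in the closing section.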

Additional observations from a re-analysis of the deposited data

How the results depend on the processing

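No paired analysis was possible because each genotype had 1 cDNA library, and for the same reason no replicate could be left out. The count of 4 higher genes was 2 (Cxcl1 and Cxcl2) in barcodes of 5000 to 10000 UMIs and 3 or 4 under the other alternatives. The count of 1 lower gene was 2 at the lower fold limit tried, with Cx3cl1 added, and 0 in barcodes of 5000 to 10000 UMIs. The log2 ratios of Cxcl1, Cxcl2, Ccl2 and Ccl7 stayed above 0 in all 12 alternatives and that of Cxcl10 below 0; that of Cxcl2 ran from 0.43 to 4.27, the last without the top 1% of barcodes of the gene, which held 97.9% of its wild-type UMIs. Csf1 moved to 0.18 under median scaling. The 5 pairs became 9 without strata and 13 when detection needed 2 UMIs, and 4 of the 5 were kept in that last setting, from 10000 UMIs, with barcodes thinned to 5000 UMIs and without fibroblast-marked barcodes. Ccl2 was the 1 gene at least 4-fold higher in deep than in T barcodes of both libraries under all 5 alternatives. Depth ranges and leaving out the top 1% or fibroblast-marked barcodes were chosen after seeing the data. In T barcodes the few counts limit every ratio.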

Other observations

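Outside both classes, barcodes with at least 5000 UMIs and a Cd3e, Cd3d, Cd3g or Ptprc UMI numbered 223 in the FOXP3 humanized and 113 in the wild-type library. Cxcl1 stood at 59.3 CPM (51.8 to 67.6) in the FOXP3 humanized and 22.1 CPM (16.9 to 28.5) in the wild-type ones, and Ccl2 at 212 CPM (197 to 227) and 56.1 CPM (47.5 to 65.8). Barcodes with under 5000 UMIs and no CD3 UMI numbered 1038 and 777. In these Cxcl1 stood at 71.5 and 27.6 CPM, Ccl2 at 217 and 117 CPM, and Csf1 at 41.2 and 40.5 CPM in the FOXP3 humanized and wild-type libraries.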
